A study of Mus musculus with 8 samples.

Results

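Transcripts of 10 heat shock proteins and other molecular chaperones were followed in RNA sequencing of mouse neural cells that carry WT or glycosylation-deficient dentin matrix protein 1 (DMP1). The 10 members were Hsp90aa1, Hsp90ab1, Hspa8, Hspa5, Hspa1a, Hspb1, Cryab, Hspd1, Hsph1 and Dnajb1, chosen by symbol and matched to their Ensembl gene IDs, and all 10 were present among the 47729 genes of the neural stem cell (NSC) table and the 40562 genes of the astrocyte table. In S89G-DMP1 mice, serine 89 of DMP1, where a glycosaminoglycan chain is attached, was replaced by glycine through homologous recombination in C57BL/6J embryonic stem cells. The change is constitutive, so every cell of a homozygous animal carries it, and WT C57BL/6 mice were the controls. NSCs were grown as neurospheres from the sub-ventricular zone in serum-free medium, with 3 WT and 3 S89G-DMP1 libraries, and astrocytes were passaged in serum from dissected cortex, with 1 WT and 1 S89G-DMP1 library. All mice were 10 weeks old by the labels, although the methods give an older age for the astrocyte cultures. Whether the 3 NSC libraries of a genotype came from separate mice or cultures was not stated. The p-values therefore measure only the spread between these libraries. Each pair of NSC libraries was compared over 11136 genes by its chi-square divided by the number of genes. Same-genotype pairs gave 1.07 up to 1.51, and pairs of different genotype gave 3.17 up to 4.06. If each genotype came from a single culture, a culture difference could not be told apart from a genotype difference. This was not tested.

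Molecular chaperones bind unfolded proteins and help them reach or keep their folded state. HSP70 proteins work in cycles of ATP binding and hydrolysis, in which J-domain proteins (HSP40) deliver clients and nucleotide exchange factors such as HSP110 release them, while HSP90 acts later on partly folded clients such as kinases and steroid receptors. Small heat shock proteins hold unfolded proteins without ATP, and the mitochondrial chaperonin encloses its clients in a chamber. Heat shock factor 1 induces many of these genes through repeats of the pentamer nGAAn in their promoters, and the unfolded protein response induces the chaperones of the endoplasmic reticulum (ER) through the ER stress response element. In brain, Cryab and Hspb1 are known mainly from glia and vascular cells.

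To show the sequences on which these regulators act, the 200 bases upstream of each RefSeq transcription start in GRCm38.p6 were searched on both strands. RefSeq promoter windows were at hand for 6 of the 10 members, Hspa5, Hspa1a, Hspb1, Hspd1, Hsph1 and Dnajb1, and for Hsp90aa1, Hsp90ab1, Hspa8 and Cryab none was read. The ER stress response element was spelled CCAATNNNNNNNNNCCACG, with its reverse complement. It was present upstream of 32 of 27025 genes (0.118%), and of 7 of the 16 genes with a promoter window among a list of 19 ER chaperones and folding enzymes. Those 7 sites are printed with the element in capitals, 30 bases each and 5′ to 3′ on the strand of the gene, because Hspa5 and its list are described together below the member values.
Hspa5: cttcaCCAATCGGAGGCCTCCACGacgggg
Hsp90b1: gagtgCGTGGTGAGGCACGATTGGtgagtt
Dnajc3: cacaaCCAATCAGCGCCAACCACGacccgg
Pdia6: agagaCCAATGAAAGGCGGCCACGgcgtgg
Calr: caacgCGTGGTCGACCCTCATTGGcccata
Canx: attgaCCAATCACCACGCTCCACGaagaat
Creld2: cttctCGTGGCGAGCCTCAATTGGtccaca
The Hspa5 stretch lies at chr2:34772020-34772049 on the plus strand, with the first base of the element 65 bases before the RefSeq start. The element ran in the reverse orientation in Hsp90b1, Calr and Creld2. A match describes letters only and shows no binding.

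The heat shock element was searched as 3 pentamer units, spelled GAANNTTCNNGAA or TTCNNGAANNTTC, and as 2 units, spelled GAANNTTC or TTCNNGAA, so that every 3-unit match also holds 2-unit matches. Of all genes 0.429% held the 3-unit and 11.8% the 2-unit form. Hspd1 and Hspe1, the mitochondrial chaperonin and its co-chaperonin, are transcribed away from each other and share 1 site with 2 overlapping 3-unit matches. It is shown from both strands, together with the 2-unit site of Hsph1 and the 200 bases upstream of Hspb1, which holds a pair of 2-unit sites, since Hspd1, Hsph1 and Hspb1 are among the members that differed most between the libraries.
Hspd1: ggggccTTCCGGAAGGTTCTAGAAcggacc
Hspe1: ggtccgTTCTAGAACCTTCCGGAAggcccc
Hsph1: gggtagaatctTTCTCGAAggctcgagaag
Hspb1: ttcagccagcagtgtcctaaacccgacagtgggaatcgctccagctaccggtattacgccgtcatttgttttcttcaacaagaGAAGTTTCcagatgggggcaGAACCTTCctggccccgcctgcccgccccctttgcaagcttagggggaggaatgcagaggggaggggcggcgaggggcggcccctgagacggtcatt
The shared Hspd1 and Hspe1 stretch is chr1:55088053-55088082, the Hsph1 stretch chr5:149636351-149636380 on the minus strand, and the Hspb1 stretch chr5:135887719-135887918 on the plus strand. Hspa1a held one 2-unit match with its first base 104 bases before the start, and neither RefSeq window of Dnajb1 held any of these spellings. In a list of 20 heat-inducible genes, 9 of the 16 with a promoter window held a 2-unit match and 2 of them, Hspd1 and Hspe1, a 3-unit match.

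The NSC libraries held 2354615 to 2588130 reads assigned to genes, the WT astrocyte library 14008670 and the S89G-DMP1 astrocyte library 13016924. TMM factors from edgeR turned the counts into CPM, the count of a gene over the scaled total times a fixed factor, and the cell types were compared separately because their tables came from different pipelines. The label of the WT astrocyte library went against its defining markers. That library held 8 counts of Aqp4, 8 of Slc1a3 and 90 of Gfap, and its 8 astrocyte markers summed to 117 CPM against 1043 CPM in the S89G-DMP1 library. Gja1 gave 92.0 CPM of the WT sum, and 7 of the 8 markers were higher in the S89G-DMP1 library, with S100b, at 64 and 30 counts, the exception. Fibroblast markers went the other way, from 3859 to 1852 CPM, and all 5 were lower in the S89G-DMP1 library, as were endothelial markers, from 161 to 16.0 CPM, of which 3 of 4 counted were lower. Mural cell markers summed to 1919 and 2669 CPM, with Acta2 higher and the other 4 counted either lower or, for Cspg4, close to WT. Kcnj8 of the mural list and Cldn5 of the endothelial list were at 0 in both libraries. Neural progenitor markers summed to 733 and 2081 CPM, microglia markers to 338 and 477, neuron markers to 75.9 and 217, and oligodendrocyte lineage markers to 21.1 and 267. The part of these markers in the astrocyte results was not tested, and within a bulk library fewer cells of a type cannot be told apart from less RNA per cell. The NSC libraries held their progenitor markers, at 3462 to 3691 CPM in WT and 3819 to 3890 CPM in S89G-DMP1.

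Levels of different genes were compared per length, as CPM per kilobase of gene with the 1 length per gene that the deposited astrocyte FPKM values imply. Hsp90ab1, the constitutive cytosolic HSP90, was the highest member in WT NSCs at 2652 ± 39.9 (SD, n = 3), followed by Hspa8, the constitutive HSP70, at 697.5 ± 24.3. Hspa5, the HSP70 of the ER also named BiP, came next at 389.8 ± 17.3, then Hsp90aa1, the inducible HSP90, at 351.9 ± 13.0 and Hspd1 at 301.1 ± 9.21. The WT libraries of Hspa5 and Hsp90aa1 did not overlap on this scale. A second step down led to Hsph1, an HSP110, at 68.7 ± 1.86, Cryab, or alphaB-crystallin, at 28.0 ± 3.70, and Dnajb1, the HSP40 partner of inducible HSP70, at 26.8 ± 1.07. The last pair did not differ beyond their spread. Hspb1 and Hspa1a were at or near 0. Hspb1 had 0, 0 and 3 counts in the WT libraries and 0 in each S89G-DMP1 library, and Hspa1a had 0, 0 and 1 counts in WT and 1, 0 and 0 in S89G-DMP1. At this depth 3 counts, the limit that a count of 0 allows, correspond to 1.16 to 1.27 CPM without TMM factors. The deposited TPM values listed Hspa1a above 0 in all 6 NSC libraries, from 0.570 in WT library 1 upward, although 4 of them held no count of it. Mean TPM in WT NSCs was 2373 for Hsp90ab1, 1622 for Hspa8, 465.4 for Hspd1, 423.5 for Hsp90aa1 and 415.5 for Hspa5. The last 3 thus stood in the reverse of their order per length.

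In the WT astrocyte library the same scale gave 1885 for Hsp90ab1, 836.2 for Hspa8, 676.6 for Hspa5, 524.6 for Hsp90aa1, 332.6 for Cryab and 272.2 for Hspb1, so both small heat shock proteins stood among the abundant members there. Hspd1 followed at 168.9, Hsph1 at 116.0, Dnajb1 at 22.5 and Hspa1a at 0.938. In the S89G-DMP1 library, Hsp90ab1 (2109), Hspa8 (909.8) and Hspa5 (437.3) held the first places on this scale, while Hsp90aa1 was at rank 9 of 10 with 13.5. The implied lengths were shorter than the longest annotated transcript for several members, for example 881 against 2520 bases for Hsp90ab1. With the longest GENCODE transcript in its place, Hsp90ab1 was still first in WT NSCs (927.0) and in both astrocyte libraries, but other places changed. In WT NSCs Hspd1 (157.9) passed Hspa5 (150.5) and Hsp90aa1 (127.2), and Cryab (29.7) passed Hsph1 (28.1). In the WT astrocyte library Cryab (352.9) rose to rank 2, just above Hspa8 (351.4), and Hspb1 (268.4) passed Hspa5 (261.3) and Hsp90aa1 (189.6). In the S89G-DMP1 library Cryab (191.3) passed Hspa5 (168.9), and Hsp90aa1 stayed at rank 9.

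The comparison of genotypes in NSCs asked whether the S89G change altered transcripts before glial differentiation. Hspd1 rose by 27.2% and Cryab fell by 40.7% in S89G-DMP1 NSCs, and the other 6 members that could be tested did not pass the test. Calls were made with edgeR's quasi-likelihood test at a Benjamini-Hochberg adjusted p of 0.05 over the 11194 genes that passed edgeR's filter on low counts. Of all these genes 15.8% were called, 7.08% higher and 8.76% lower, beside 1 higher and 1 lower among the 8 members tested. Hspa1a and Hspb1 did not pass the filter.

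Hspd1 encodes HSP60, the barrel of the mitochondrial chaperonin. It was counted at 372.1, 395.5 and 387.0 CPM in the WT libraries and at 475.5, 477.6 and 515.0 CPM in the S89G-DMP1 libraries. Every S89G-DMP1 library lay above every WT library. The means were 384.9 ± 11.8 and 489.4 ± 22.2 CPM (SD, n = 3 each), with a log2 fold change of 0.35 (SE 0.05) and an adjusted p of 1.36e-06 by edgeR. The deposited TPM also separated the genotypes, at 437.0 to 480.4 in WT and 515.3 to 631.6 in S89G-DMP1. Its partner Hspe1, or HSP10, which shares the promoter site shown above, had 114.6 to 128.1 CPM in WT and 117.1 to 149.2 CPM in S89G-DMP1. These ranges overlapped, and the log2 fold change of 0.16 had an adjusted p of 0.17. Hspd1 spans chr1:55077835-55088243 on the minus strand of GRCm38, and its 5′ end overlaps Hspe1 on the opposite strand. Strand use in counting was not stated. Of the 50-base windows of its longest transcript 44.8% also occur in transcripts of 9 other genes, most of all the pseudogene Hspd1-ps3, which held 1 to 5 counts per NSC library. The genes whose log2 CPM followed Hspd1 most closely over the 6 NSC libraries, among 5012 genes of at least 50 CPM, were Anp32b (Pearson r = 0.998) and Hnrnpf (r = 0.992), a description over libraries that share genotype and depth.

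Cryab encodes a small heat shock protein that keeps intermediate filaments and other proteins from aggregating. Its counts were 89, 87 and 72 in the WT libraries and 48, 52 and 42 in the S89G-DMP1 libraries, or 37.5, 33.8 and 28.8 CPM against 20.2, 22.3 and 16.8 CPM. All 3 S89G-DMP1 libraries lay below all 3 WT libraries. The means were 33.4 ± 4.39 and 19.8 ± 2.73 CPM (SD, n = 3 each), the log2 fold change was −0.75 (SE 0.15), and edgeR's adjusted p was 0.000165. TPM values also did not overlap, at 63.4 to 83.5 in WT and 20.1 to 48.4 in S89G-DMP1. Limma on log2(TPM + 1) gave adjusted p-values of 0.311 for Cryab and 0.355 for Hspd1, and so made neither call. Cryab spans chr9:50751325-50756636 on the plus strand and overlaps Hspb2 on the minus strand, which had 0 to 2 counts per NSC library. The 2 genes most like Cryab over the 6 libraries were Tbc1d9b (r = 0.995) and Syne1 (r = 0.992).

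Several markers of other cells moved in NSCs as well. Fibroblast markers, 3 of 5 at 0 in all NSC libraries, summed to 14.4 to 20.4 CPM in WT and 8.82 to 11.8 CPM in S89G-DMP1, and Pdgfra, the 1 that could be tested, fell by 0.84 on the log2 scale (adjusted p = 0.00402 by edgeR). Mural markers summed to 173.2 to 176.5 and 108.7 to 133.5 CPM, nearly all of it Cspg4, which also marks oligodendrocyte progenitors and fell by 0.56 on the log2 scale (adjusted p = 1.15e-08 by edgeR). The neuron marker Syt1, a synaptic vesicle protein, fell from 61.5 ± 3.75 to 7.63 ± 2.29 CPM (SD, n = 3 each) with an adjusted p of 1.33e-23 by edgeR, while the other 3 neuron markers tested were not called and the list summed to 1151 to 1300 CPM in WT and 1188 to 1211 CPM in S89G-DMP1. Endothelial and microglia markers reached no more than 3.79 CPM in any library. Of 6 tested astrocyte markers 3 rose, Aldh1l1, Gja1 and Slc1a3, with a median of 0.49 over the list. The progenitor marker Fabp7 was also called higher. The part of these cells in the Cryab result was not tested.

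Both cytosolic HSP90 genes were slightly higher in S89G-DMP1 NSCs without passing the test. Hsp90ab1 had 2310, 2357 and 2381 CPM in WT and 2507, 2564 and 2523 CPM in S89G-DMP1, with no overlap, a log2 fold change of 0.11 (SE 0.04) and an adjusted p of 0.0857 by edgeR. DESeq2 called it, with an adjusted p of 0.0291, and the TPM values overlapped, at 2325 to 2448 and 2096 to 2654. Hsp90aa1 had 430.7, 426.2 and 402.2 CPM in WT and 462.5, 440.0 and 448.4 CPM in S89G-DMP1. Its groups did not overlap either, by a log2 fold change of 0.10 (SE 0.05) with an adjusted p of 0.213. In all, 4 of the 8 tested members had groups that did not overlap, 3 of them higher, beside 30.7% of all tested genes, 14.8% higher and 16.0% lower. An exact permutation test of 3 against 3 libraries cannot go below p = 0.1, so for single genes it reaches no call.

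No tested member of the HSP70 system passed the test between genotypes. Hspa8 had 904.4 to 966.9 CPM in WT and 929.2 to 996.3 CPM in S89G-DMP1, and its log2 fold change was 0.06 (SE 0.05). Hspa5 had 534.0 to 582.3 and 504.6 to 577.6 CPM, and a log2 fold change of −0.04 (SE 0.05). Their groups overlapped, as did those of the co-factors. Hsph1, the nucleotide exchange factor, lay between 130.5 and 137.8 CPM in WT and between 130.8 and 142.5 CPM in S89G-DMP1, with a log2 fold change of 0.02 (SE 0.07). Dnajb1 lay between 58.6 and 63.5 CPM in WT and between 57.8 and 66.1 CPM in S89G-DMP1, with a log2 fold change of 0.05 (SE 0.10). The adjusted p-values by edgeR ran from 0.447 for Hspa8 to 0.907 for Hsph1. Taking all 10 members, their share of all counted reads was 0.477% to 0.493% in WT and 0.506% to 0.523% in S89G-DMP1 NSCs.

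**Figure D1:**
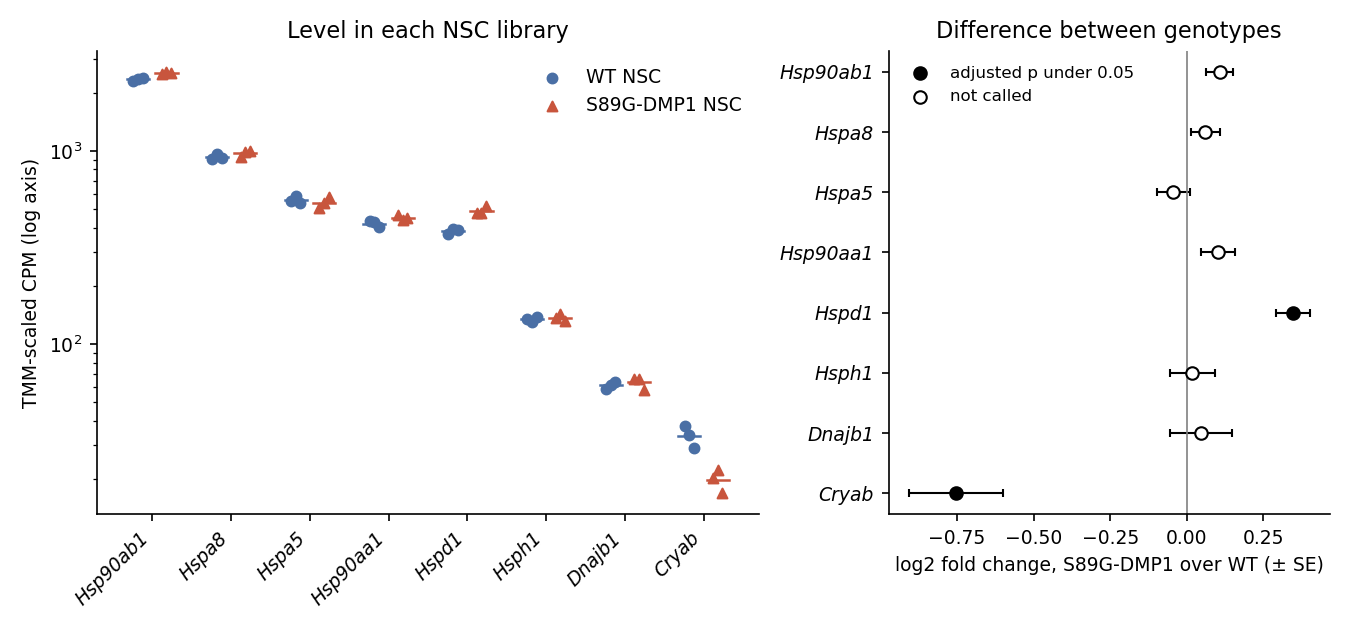
Left, TMM-scaled CPM on a log axis of the 8 tested members in each of 3 WT (circles) and 3 S89G-DMP1 (triangles) NSC libraries, with short lines at the group means. Right, log2 fold change of S89G-DMP1 over WT with its SE from edgeR, filled where the adjusted p was under 0.05. Hspd1 lies above WT (0.35) and Cryab below (−0.75), and the other 6 lie within 0.11 of 0.

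The astrocyte cultures, with 1 library per genotype, allow no test between genotypes. Log2 ratios of CPM with a prior count of 2 describe these 2 libraries over 15680 genes, those reaching 10 counts in one or both, and intervals are 95% exact binomial intervals that cover counting error only. In the S89G-DMP1 library, 4 of the 10 members were lower by 2-fold or more, Hsp90aa1, Hspb1, Hsph1 and Cryab, and 0 were higher by that much. Of all genes counted, 12.8% were that much lower and 17.3% that much higher. All 10 members had ratios below 0, beside 49.5% of all genes, with a median of −0.59. Scaling by library size alone moved the median of all genes up by 0.29. Then 5 of the 10 members were below 0 beside 33.6% of genes, and 3 of the 4 stayed at least 2-fold lower, Cryab being at −0.88.

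Hsp90aa1 showed the lowest ratio among the members. It had 8716 counts (688.4 CPM) in the WT library and 209 counts (14.5 CPM) in the S89G-DMP1 library. The S89G-DMP1 level was therefore lower by 47.4-fold (interval 41.4 to 54.7), a log2 ratio of −5.55 with TMM and −5.26 with library size alone. Only 50 of the 15680 genes (0.319%) had a ratio as low. Among the 201 genes that reached 8716 counts in one library or both, 7 were as low, Hsp90aa1 included. The other 6, named after their values were seen, were Tnxb, Xist, Thbd, Efemp1, Eng and Cyp26b1. Xist, transcribed from the inactive X chromosome of female cells, had 12172 and 74 counts, and Eng and Thbd, both known from endothelium, had 11770 and 157 and 11526 and 83 counts. The part of these differences between the 2 libraries in the Hsp90aa1 value was not tested. Hsp90ab1, by contrast, had 23263 and 24191 counts, a log2 ratio of −0.13 with TMM and 0.16 with library size alone.

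Hsp90aa1 therefore gave 27.3% (26.8% to 27.7%) of the reads of both cytosolic HSP90 genes in the WT astrocyte library and 0.857% (0.745% to 0.980%) in the S89G-DMP1 library. In the 6 NSC libraries this share was 15.7%, 15.3% and 14.4% in WT and 15.6%, 14.6% and 15.1% in S89G-DMP1. The NSC shares of the genotypes overlapped, and all of them lay between the values of the 2 astrocyte libraries.

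**Figure D2:**
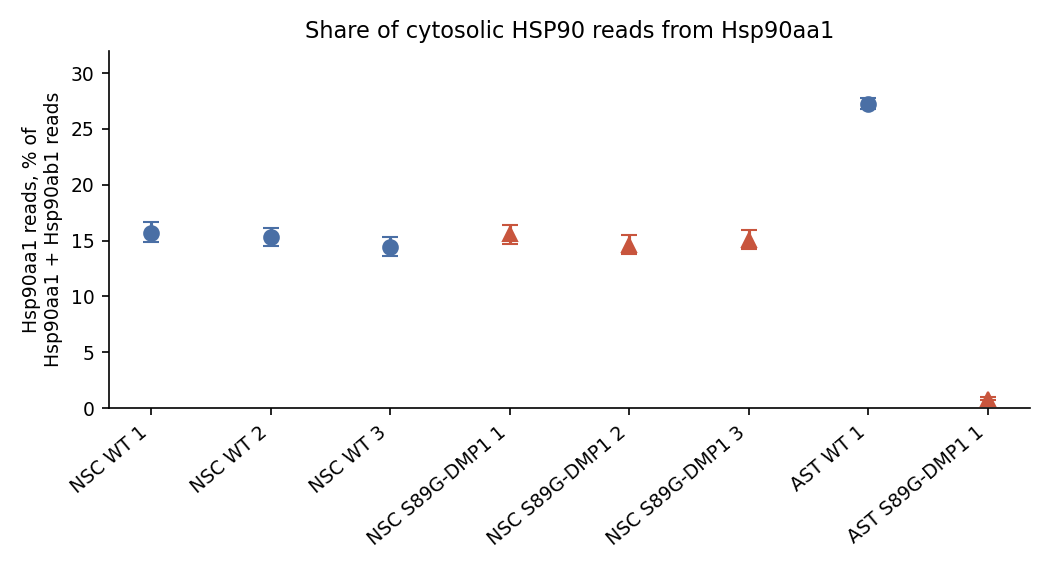
Percent of the reads of Hsp90aa1 and Hsp90ab1 together that came from Hsp90aa1, in each of the 8 libraries, WT as circles and S89G-DMP1 as triangles. Bars are 95% exact binomial intervals and cover counting error only. The NSC libraries lie between 14.4% and 15.7%, the WT astrocyte library at 27.3% and the S89G-DMP1 astrocyte library at 0.857%.

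Hsp90aa1 lies at chr12:110690605-110702728 on the minus strand of GRCm38, with no other annotated gene overlapping it. Its 9 counted neighbours within 200 kb had log2 ratios between −0.63 and 2.30, and 0 of them was 2-fold lower. The nearest of them on either side were the transcript 1700001K19Rik, with 22 and 18 counts, and Wdr20, with 286 and 371 counts. Of the 50-base windows of the longest Hsp90aa1 transcript 58.5% also occur in transcripts of 4 other genes, chiefly Gm12346, a transcribed processed pseudogene at chr11:77293444-77295898 that shares 51.5% of them. Reads of the copies can be assigned to either gene. Gm12346 held 140 counts in the WT astrocyte library and 0 in the S89G-DMP1 library, at least 53.1-fold lower when 3 counts are taken as the limit of a count of 0, and 3 to 11 counts in each NSC library. The sum of the gene and this copy was thus lower in the S89G-DMP1 library too.

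Both small heat shock proteins among the members, Hspb1 and Cryab, were lower as well. Hspb1, or HSP25 in mice, which also binds actin filaments, had 3497 counts (276.2 CPM) in the WT and 636 counts (44.2 CPM) in the S89G-DMP1 library, a 6.25-fold lower level (5.75 to 6.82) and a log2 ratio of −2.64. Cryab had 5522 and 2782 counts, or 436.1 and 193.2 CPM, a 2.26-fold lower level (2.16 to 2.36). Hspb1 made up 38.8% (37.8% to 39.8%) of the reads of the pair in the WT library and 18.6% (17.3% to 20.0%) in the S89G-DMP1 library. In NSCs it held 3 of 75 such reads in 1 WT library and 0 in the other 5. Hspb1 shares 51.7% of its 50-base windows with the pseudogene Hsp25-ps1, listed at 0 counts in all 8 libraries. Hspb1 is at chr5:135887919-135889563.

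Hsph1 had 3163 and 1459 counts, or 249.8 and 101.3 CPM, 2.47-fold lower (2.32 to 2.63). Hspa5 had 13441 and 8072 counts, or 1062 and 560.5 CPM, 1.89-fold lower (1.84 to 1.95), with a log2 ratio of −0.92 under TMM and −0.63 under library size. These 2 genes share no 50-base window with other genes. Hspa8, Hspd1 and Dnajb1 were nearer to WT, with log2 ratios of −0.17, −0.26 and −0.20 under TMM and 0.12, 0.03 and 0.09 under library size, so the sign of each depended on the scale. Hspa1a had 39 and 42 counts, and Hspa1b, with which it shares 58.8% of its windows, 273 and 179. How reads common to this pair were divided was not stated, so neither value is certain.

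**Figure D3:**
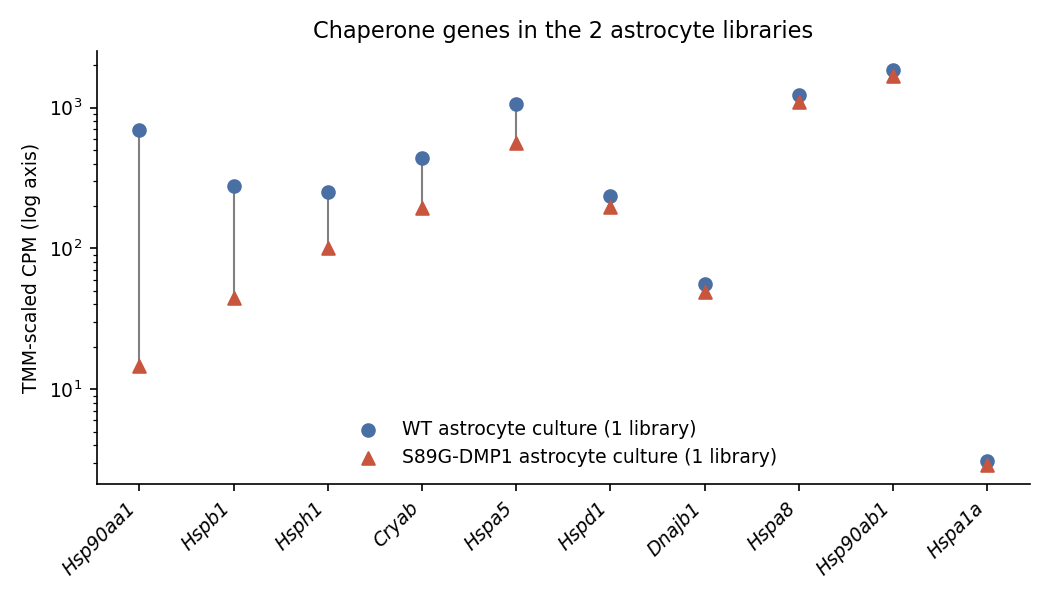
TMM-scaled CPM on a log axis of the 10 members in the WT (circles) and S89G-DMP1 (triangles) astrocyte library, ordered from the lowest to the highest ratio. Grey lines join the libraries and are not errors. Hsp90aa1 is at 688.4 and 14.5 CPM and Hspb1 at 276.2 and 44.2 CPM, while Hsp90ab1, Hspa8 and Hspa1a lie close together.

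The wider chaperone network was described with 10 lists, 117 genes in all with the members included. In NSCs 100 of them were tested, and 8 rose and 4 fell, beside 7.08% of all tested genes higher and 8.76% lower. DESeq2 called 1 lower. Without S89G-DMP1 library 3 the number higher was 4, and without S89G-DMP1 library 1 or 2 or WT library 3 the number lower was 2. The median log2 fold change of the lists was 0.03, beside 0.00256 for all genes. The HSP90 list, with 17 of 17 tested, had 2 higher and 1 lower. Ptges3, the co-chaperone p23, rose from 171.5 ± 5.07 to 219.3 ± 7.76 CPM (SD, n = 3 each), a log2 fold change of 0.35 with an adjusted p of 3.01e-05 by edgeR, and all 3 S89G-DMP1 libraries lay above WT. Cacybp, the calcyclin-binding protein, had a log2 fold change of 0.29 (adjusted p = 0.00208), and Unc45a, which folds myosin with HSP90, fell by 0.44 (adjusted p = 0.0249).

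TRiC, the cytosolic chaperonin that folds actin and tubulin, and prefoldin had 3 of 14 genes higher and 0 lower in NSCs. They were the TRiC subunits Tcp1 at 0.24, Cct4 at 0.19 and Cct6a at 0.17 on the log2 scale (adjusted p = 0.00214, 0.0318 and 0.0269 by edgeR). Mitochondrial chaperones and proteases had 2 of 12 higher, Hspd1 and Hspa9, the mitochondrial HSP70, at 0.18 (adjusted p = 0.0132), and a list median of 0.12. Of the HSP40 list 1 of 18 was higher, the ribosome-associated Dnajc2, at 0.29 with an adjusted p of 0.0498. Of the ER list 1 of 19 was lower, Hyou1, an ER relative of HSP110, by 0.22 (adjusted p = 0.0159), while the 6 genes of this list that share the ER stress response element with Hspa5 had log2 fold changes from −0.28 (Creld2) to 0.08 (Canx) without passing the test. Among heat shock factors and their regulators 1 of 3 was lower, Hsbp1, which binds heat shock factor 1, by 0.21 (adjusted p = 0.0252).

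Cryab was the 1 call among 3 tested small heat shock proteins, all 3 of which had negative fold changes. Among 17 tested heat-inducible genes 2 were higher, Hspd1 and Cacybp, and 1 lower, Cryab, with a median of 0.09. The HSP70 and HSP110 list (6 tested) and the nucleotide exchange factors and BAG proteins (9 tested) had 0 calls. Of 6 tested immediate early genes, which respond to handling of cells, 0 rose and 3 fell, Fos, Egr1 and Npas4.

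In the astrocyte libraries 112 genes of the 10 lists were counted. By the 2-fold limit 4 were higher and 17 lower with TMM, and 8 higher and 11 lower with library size alone. Of all genes counted, 17.3% were that much higher and 12.8% that much lower with TMM. These shares also stand beside the TMM counts of single lists below. The share of all genes past the limit was not taken for library size alone. Their median was −0.33 with TMM and −0.04 with library size. ER chaperones and folding enzymes stood on 1 side under both scales. All 19 had ratios below 0, beside 49.5% of all genes with TMM and 33.6% with library size, their medians were −0.73 and −0.44, and 5 were at least 2-fold lower with TMM but only Ddit3 with library size alone. The 4 lowest with TMM were Ddit3, the stress-induced factor CHOP, at −1.90 with 835 and 253 counts, Dnajb9 at −1.23, the unfolded protein response factor Xbp1 at −1.19, and Hyou1 at −1.16. The fifth, Sdf2l1, outside the naming rule, was at −1.06. The 7 genes with the ER stress response element were Hspa5 at −0.92, Dnajc3 at −0.98, Creld2 at −0.77, Hsp90b1 at −0.61, Pdia6 at −0.41, Canx at −0.40 and Calr at −0.35. The summed level of the list was 8561 CPM in the WT and 5594 CPM in the S89G-DMP1 library. Fibroblast and endothelial markers were lower in the same library, as given above, and their part in this result was not tested.

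Small heat shock proteins had 4 of 7 counted genes at least 2-fold lower with TMM and 3, without Cryab, with library size, Hspb7 at −3.80 with 73 and 4 counts and Hspb2 at −2.22 besides Hspb1 and Cryab. Hspb6 was 2-fold or more higher, at 1.51. Outside the naming rule, Hspb8 was at 0.43 with 2102 and 3226 counts, and Hspb11 at 0.09. Hspb2 and Cryab overlap on opposite strands, and Hspb2 had 101 and 23 counts. The HSP70 list had 3 genes lower, Hsph1 among them, and 2 higher. Hspa12a and Hspa12b, distant HSP70 relatives, were at −4.13 and −3.58, and Hspa4l, of the HSP110 family, was at 2.02. The other higher gene, Hspa1l, was named after its values were seen and had 3 and 11 counts. Of the HSP90 list Fkbp5, a glucocorticoid-induced co-chaperone, was at 2.04 with 58 and 278 counts, and Hsp90aa1 was the 1 gene 2-fold lower. The HSP40 list had 3 of 20 lower and 0 higher with TMM, but 2 lower and 3 higher, Dnajb5, Dnajc7 and Dnajc9, with library size alone. Dnajc6, the neuronal auxilin, had 43 counts in the WT and 1 in the S89G-DMP1 library, Dnajc10, an ER reductase, was at −1.51, and Dnaja4 at −1.12 with TMM and −0.83 with library size.

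Mitochondrial chaperones and TRiC with prefoldin had 0 genes 2-fold apart in either direction, with TMM medians of −0.37 and −0.02. With library size alone the medians were −0.08 and 0.27, 13 of the 14 TRiC and prefoldin genes were above 0, and Pfdn1, a prefoldin subunit, was over 2-fold higher at 1.14. Hsf4 was the 1 of 4 heat shock factor genes 2-fold lower, with 84 and 7 counts, and Hsph1 the 1 of 9 nucleotide exchange factors and BAG proteins. The heat-inducible list, which shares its leading genes with the lists above, had 5 of 20 lower with TMM, 3 with library size, and 1 higher, Hspa4l, under both, and a median of −0.34 with TMM and −0.05 with library size. Of 8 immediate early genes Jun and Npas4 were at least 2-fold higher and 0 lower.

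**Figure D4:**
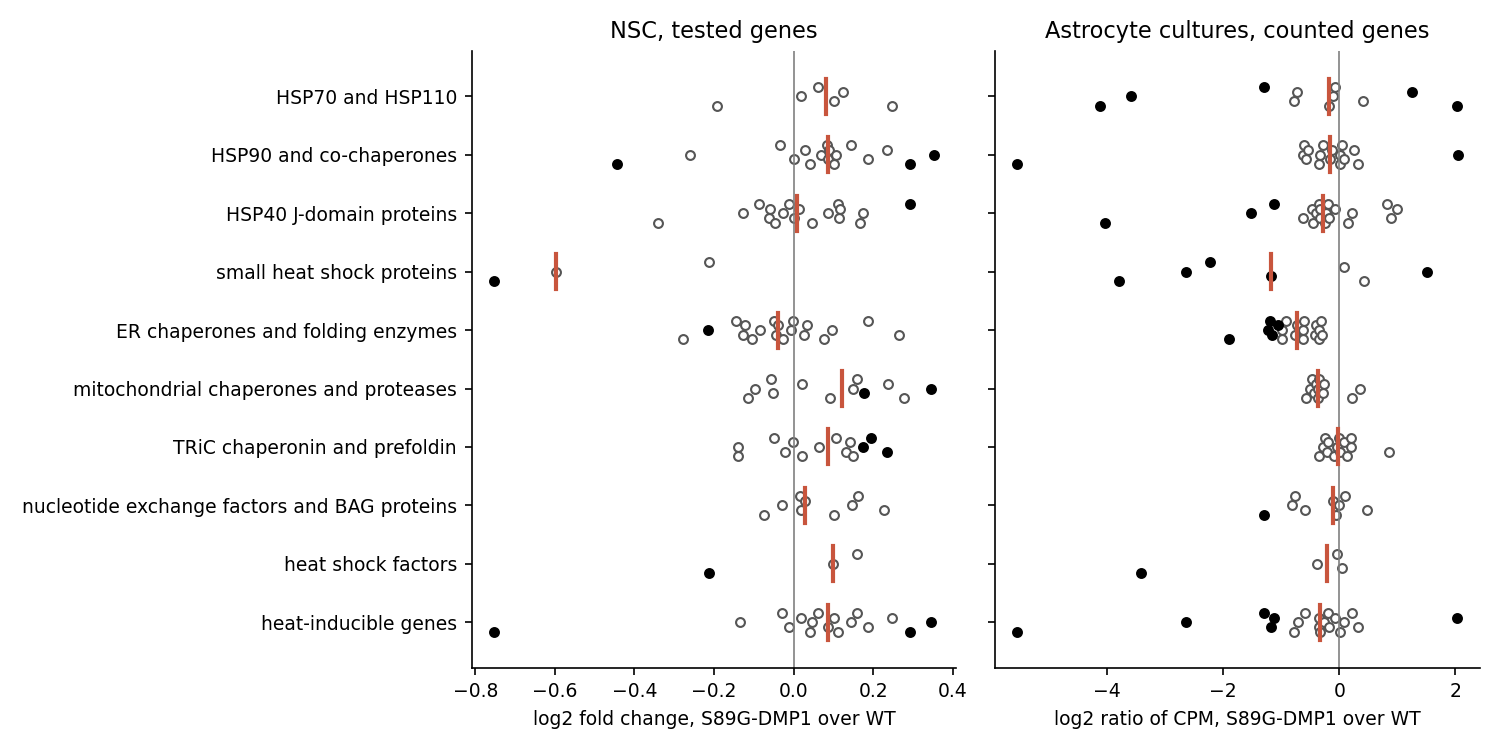
Each point is a gene of 1 of the 10 chaperone lists. Left, log2 fold change in NSCs for tested genes, filled where edgeR's adjusted p was under 0.05, and right, log2 ratio of TMM-scaled CPM in the astrocyte libraries for counted genes, filled where at least 2-fold apart. Red lines are list medians, the axes differ between the panels, and the 19 ER genes on the right all lie below 0 with a median of −0.73.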

How the data were processed

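RNA was sequenced from 3 WT and 3 S89G-DMP1 NSC libraries and 1 WT and 1 S89G-DMP1 astrocyte library. The authors deposited counts of reads per gene for all 8 libraries, FPKM for astrocytes and TPM for NSCs. Per the labels, the submitters' processing notes name TopHat2 2.0.9 and Bowtie2 2.0.6, and HISAT2, StringTie, featureCounts and GRCm38. The build and counter of the astrocyte table, the strand setting and the handling of reads with several matches are not given in the sources used here. Groups came from the labels.

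NSC counts were compared with edgeR 4.0.16 in R 4.3.3 (filterByExpr, TMM, quasi-likelihood test, genotype only, Benjamini-Hochberg over 11194 genes, threshold 0.05). SE was the absolute log2 fold change over the square root of the F statistic. Astrocyte log2 ratios were taken from TMM-scaled CPM (prior count 2). With 2354615 to 2588130 counts per NSC library, a simulation with the NSC means called 94 of 97 genes changed 2-fold, 65 of 99 changed by 0.5 on the log2 scale and 13 of 10888 unchanged. Its dispersion was the trend estimated from these same libraries, so the rates hold only for libraries with that spread. Positions and transcripts are GENCODE M21, promoters RefSeq GRCm38.p6. Alternatives were DESeq2 1.42.0, limma 3.58.1 on TPM, other factors, filters, thresholds and FPKM, each NSC library left out, and a replicate block. The longest-transcript length was added after seeing the data.

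The members and gene lists were chosen with earlier results of these data known. Named genes are all members, per list up to 4 called genes in NSCs and up to 4 at least 2-fold apart in astrocytes with the largest change, the 2 genes most like each called member, leading markers, and copies or neighbours that may share reads. Hspe1, the ER genes with the stress element and the neighbours of Hsp90aa1 were added for the promoter and locus descriptions, and Pdgfra, Cspg4, immediate early genes and markers called in NSCs after their values were seen.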

Additional observations from a re-analysis of the deposited data

Results flagged for a closer look

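The Hsp90aa1 estimates had opposite signs in the 2 cell types, although the NSC difference was not called. In NSCs its 3 S89G-DMP1 libraries, at 440.0 to 462.5 CPM, lay above its 3 WT libraries, at 402.2 to 430.7 CPM, by a log2 fold change of 0.10 that did not pass edgeR's test (adjusted p = 0.213). In the astrocyte libraries the log2 ratio was −5.55 with TMM and −5.26 with library size alone. The difference between the cell types was not tested, since astrocytes had 1 library per genotype and another processing pipeline. Of all tested NSC genes 14.8% likewise had groups that did not overlap and were higher. The WT astrocyte library held few counts of several astrocyte markers, as given above.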

How the results depend on the processing

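Cryab and Hspd1 kept their direction under all 15 NSC alternatives and their call under 13 of them. Adjusted p-values ran from 5.41e-05 to 0.347 for Cryab and from 9.65e-09 to 0.368 for Hspd1, and both calls were lost by limma on log2(TPM + 1) and log2(TPM + 0.1), which called 0 members higher and 0 lower. DESeq2 called 2 members higher, adding Hsp90ab1. With each NSC library left out, 1 member was always higher and 1 lower. Genes of the chaperone lists called higher then numbered 4 to 10 (main value 8), with 4 when S89G-DMP1 library 3 was left out, and those called lower 2 to 5 (main value 4), with 2 without S89G-DMP1 library 1 or 2 or WT library 3. DESeq2 called 1 list gene lower, and limma on TPM 0 higher and 1 lower. The cause was not tested. Small fold changes turned sign for Dnajb1 with limma (−0.098 and −0.099), for Hspa5 without S89G-DMP1 library 1 (0.0031, range −0.098 to 0.0031 over the 6 libraries left out), and for Hsph1 without S89G-DMP1 library 2 (−0.015) or WT library 2 (−0.0062), with a range of −0.015 to 0.0469. None of these was called.

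The replicate numbers did not pair the NSC libraries, since deviations of same-numbered libraries correlated at 0.026, −0.012 and −0.018, and 1 of 3 matched best its own number. With the number as a replicate block, 829 genes were called higher and 1016 lower, against 792 and 981 without it, and 1 member was higher and 1 lower as before.

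In astrocytes, 2 members rather than 4 were at least 2-fold lower with log2(FPKM + 1). Hsph1 (−0.998) fell just inside the limit there, and Cryab (−0.879) further inside. With TMM, 2 members were at least 4-fold lower. List genes past the limit numbered 8 higher and 11 lower with library size alone or log2(FPKM + 0.1), 7 and 9 with log2(FPKM + 1), 8 and 34 at 1.5-fold, and 2 and 8 at 4-fold. The level per length of Cryab over Hsp90aa1 in the WT astrocyte library was 0.634 with the implied and 1.86 with the longest transcript lengths. In NSCs, DESeq2 called 321 genes higher and 424 lower, and limma on log2(TPM + 1) 35 and 51. Depth limits genes near 3 counts, such as Hspa1a and Hspb1 in NSCs.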
